A study of Mus musculus with 6 samples.

Results

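The mevalonate and squalene pathway builds sterols and isoprenoids from acetyl units. Its 9 members described here, in the order of their reactions, are Hmgcs1, Mvk, Pmvk, Mvd, Idi1, Fdps, Fdft1, Sqle and Lss, which were found in the deposited table by gene symbol as 9 of its 32479 rows. The pathway was selected with the results of the same CCl4 and control comparison already known, so the changes of its members are a description, not an independent finding.

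The libraries came from C57BL/6J mice in a study that asked how liver cirrhosis affects the heart. One group was given carbon tetrachloride (CCl4), a solvent that the liver turns into free radicals and that is used to produce liver scarring in mice, and the other was the untreated control. There were 3 mice per group and 1 RNA sequencing library per mouse, each labelled as primary cardiac fibroblasts isolated at the end of the modelling period. No transgene or other allele is named for either group, and the dose, route and duration of CCl4, the sex and age of the mice and the way the fibroblasts were isolated were not stated in the sources used here.

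In this pathway, HMG-CoA made by the synthase is reduced to mevalonate, which is phosphorylated by a pair of kinases and decarboxylated to the building block isopentenyl diphosphate. An isomerase and farnesyl diphosphate synthase assemble these units into farnesyl diphosphate, the branch point at which carbon either enters squalene and the sterols or goes to prenylated proteins, dolichol, ubiquinone and haem A. In most mammalian cells the genes of the pathway are known to be induced together when sterols are low, through the transcription factor SREBP-2, which binds sterol elements in their promoters.

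The labelled cell type was first set against marker genes. All 10 fibroblast markers were detected, with a summed level of 551 to 558 FPKM in the CCl4 libraries and 440 to 711 FPKM in the control libraries (FPKM is fragments per kilobase of gene scaled to the mapped fragments of its library). The 11 cardiomyocyte markers summed to far more, 18210 to 20090 FPKM in the CCl4 libraries and 13220 to 15230 FPKM in the control libraries, so that muscle transcripts were abundant in all 6 libraries against the label. These sums did not overlap, but the largest difference in them came from Actc1. It had 6091, 5569 and 5860 FPKM with CCl4, against 2276, 1374 and 1555 FPKM in control. Myh7 went the other way, averaging 71.2 FPKM with CCl4 and 955 FPKM in control, and 8 of the 11 were not called. The separation of the sums therefore does not stand for the list as a whole. Summed levels overlapped between the groups for 6 endothelial markers (98.1 to 116 FPKM with CCl4, 87.3 to 100.3 FPKM in control), 6 macrophage markers (153 to 172 FPKM with CCl4, 134 to 172 FPKM in control) and 5 smooth muscle and pericyte markers (138 to 209 FPKM with CCl4, 165 to 198 FPKM in control). No marker of these 5 lists was at 0 in all libraries. Of 5 hepatocyte markers, Alb, Serpina1a and Fga were listed at 0 in all 6 libraries. Apoa1 lay at 0 to 0.09 FPKM, and Ttr at 0.05 to 0.25 FPKM with CCl4 and 0.2 to 0.53 FPKM in control. By the test across all rows, in which 9.64% of rows were called higher and 22.2% lower, 2 of 11 cardiomyocyte markers rose and 1 fell. Higher calls were made for 6 of 10 fibroblast, 1 of 6 endothelial, 1 of 6 macrophage and 2 of 5 smooth muscle and pericyte markers, and 0 markers of these 4 lists were called lower. The part of cell makeup in the results below was not tested, and in bulk libraries fewer cells of a type and less RNA per cell cannot be told apart. Mitochondrially encoded rows made up 52.05% to 53.17% of the FPKM sum with CCl4 and 48.62% to 50.73% in control, and the sums themselves were 588660 to 602763 FPKM with CCl4 and 519609 to 542738 FPKM in control, so both moved with the groups. Fragment counts and read depth are not known from the table.

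The windows upstream of 3 members are shown because they frame the results that follow. Pmvk had the highest change, Mvk faces a divergent neighbour, and Hmgcs1 is, among the 6 members with a window, the one whose window held a sterol element. They are the 250 bases before the gene's first annotated base, 5′ to 3′ on the gene's own strand, from the RefSeq promoter table for GRCm38.p6, in which 6 of the 9 members had an entry and 7 windows were found. Capitals mark 3 sets of letters searched on both strands: the sterol element TCACNCCAC, the CCAAT box (CCAAT, or ATTGG where it lies on the other strand) and the GC box (GGGCGG, or CCGCCC on the other strand).
Pmvk upstream window, chr3:89454291-89454540, plus strand: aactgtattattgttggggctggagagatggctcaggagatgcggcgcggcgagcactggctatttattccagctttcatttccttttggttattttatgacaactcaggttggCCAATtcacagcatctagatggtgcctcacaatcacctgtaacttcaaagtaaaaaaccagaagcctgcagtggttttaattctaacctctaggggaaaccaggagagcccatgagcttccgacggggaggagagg
Mvk upstream window, chr5:114444019-114444268, plus strand: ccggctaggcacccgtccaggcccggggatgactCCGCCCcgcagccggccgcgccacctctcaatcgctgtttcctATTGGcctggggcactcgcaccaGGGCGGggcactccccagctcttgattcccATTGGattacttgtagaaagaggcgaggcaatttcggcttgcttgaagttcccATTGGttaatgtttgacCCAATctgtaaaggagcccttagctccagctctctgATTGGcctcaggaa
Hmgcs1 upstream window, chr13:119690101-119690350, plus strand: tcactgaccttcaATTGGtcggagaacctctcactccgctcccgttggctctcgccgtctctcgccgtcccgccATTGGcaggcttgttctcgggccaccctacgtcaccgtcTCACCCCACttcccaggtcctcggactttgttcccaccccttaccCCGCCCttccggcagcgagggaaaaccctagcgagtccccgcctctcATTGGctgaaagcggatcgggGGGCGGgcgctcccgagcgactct
The Pmvk window held 1 CCAAT box, at position -136 from the first base, and neither of the other motifs. A second Pmvk window, before a start 5030 bp downstream, held none of the 3. That window lies inside the span of another Pmvk transcript, which starts 4577 bp after the gene's first base. The bases just before that transcript's start were not searched, so the motifs near all Pmvk starts are not known. The Mvk window held 5 CCAAT boxes and 2 GC boxes. It is shared with Mmab, an enzyme of vitamin B12 metabolism transcribed in the opposite direction, whose first RefSeq base lies 242 bp from that of Mvk. The Hmgcs1 window held 1 sterol element at position -137, with 3 CCAAT boxes and 2 GC boxes. In all, 6 of the 6 members with a window held a CCAAT box, 5 held a GC box and 1 held the sterol element, where 33.8%, 32.7% and 1.05% of all 32851 windows of that length held them. Fdps, Fdft1 and Sqle had no window and were not searched, and other forms of the sterol element were searched in none. A match of letters is a description of the sequence and not evidence of binding.

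Of the 9 enzymes, 7 had a mean of at least 1 FPKM over the 6 libraries and were tested, and Sqle and Lss were not. Mvk and Pmvk were called higher with CCl4 and Fdft1 lower, with 4 tested members not called, by limma on log2(FPKM + 1) with Benjamini-Hochberg adjustment over all 10995 rows tested and an adjusted p threshold of 0.05. In that test 31.8% of all rows were called, 9.64% higher and 22.2% lower, and no result about the members is read from their count. The median log2 fold change (CCl4 minus control, as everywhere below) was -0.01 over the 7 tested members and -0.09 over all rows. The CCl4 libraries all lay above the control libraries for Pmvk and Idi1, below them for Fdft1 alone, and overlapped them for the other 6 members. Over all tested rows the groups did not overlap for 48.7%, with CCl4 above in 14.7% and below in 34.0%.

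**Figure D1:**
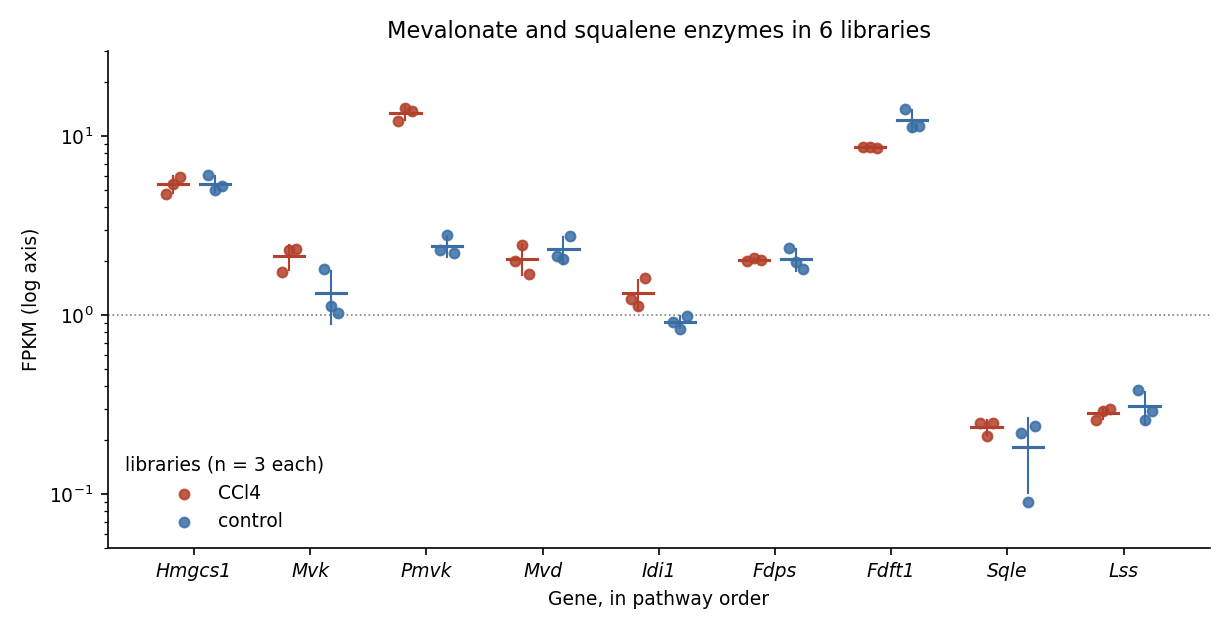
FPKM on a log axis of the 9 enzymes in pathway order, with 1 point per library for the CCl4 and control groups (n = 3 each), horizontal bars at the means and vertical bars of 1 SD; the dotted line marks 1 FPKM. The CCl4 libraries lie at 12.12 to 14.4 FPKM against 2.22 to 2.81 FPKM in control for Pmvk, and Sqle and Lss lie at 0.38 FPKM or lower in all libraries.

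The pathway opens with Hmgcs1 (chr13:119690379-119708260, plus strand, GRCm38), the cytosolic synthase that condenses acetyl-CoA and acetoacetyl-CoA to HMG-CoA. It had 4.75, 5.43 and 5.92 FPKM in the CCl4 libraries, against 6.04, 4.97 and 5.27 FPKM in the control libraries. CCl4 replicates 2 and 3 lay above control replicates 2 and 3 and under control replicate 1, so the groups overlapped. The log2 fold change was -0.01 ± 0.10 (SE), with a 95% interval of -0.24 to 0.21 and an adjusted p of 0.924 (limma), and its sign turned positive under 3 of the other scalings.

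Mvk (chr5:114444269-114460591, plus strand) is mevalonate kinase, which adds the first phosphate. Its levels were 1.73, 2.32 and 2.33 FPKM with CCl4 and 1.82, 1.13 and 1.03 FPKM in control. A single control library, replicate 1, lay above the lowest CCl4 library, and the other libraries kept the groups apart. Mean levels were 2.13 ± 0.344 FPKM with CCl4 and 1.33 ± 0.430 FPKM in control (SD, n = 3 each), a ratio of 1.60, and the log2 fold change of 0.44 ± 0.14 (95% interval 0.11 to 0.76) passed with an adjusted p of 0.0480 (limma). The call was near its threshold. Adjusted p was 0.131 without CCl4 replicate 2, 0.138 without CCl4 replicate 3, 0.131 without control replicate 2 and 0.124 without control replicate 3, and over all 17 alternatives that kept the gene it ran between 0.00932 and 0.243, with a positive change in each.

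Mmab, which shares the upstream window shown above, averaged 7.17 ± 1.14 FPKM with CCl4 and 6.26 ± 0.219 FPKM in control, a log2 fold change of 0.16 ± 0.11 that was not called (adjusted p = 0.287, limma). The ratio of Mvk to Mmab within a library was 0.295, 0.301 and 0.294 with CCl4, against 0.280, 0.182 and 0.170 in control. All 3 CCl4 ratios lay above the control ratios, although control replicate 1 came close. Such a ratio of 2 rows of one library does not depend on how that library was scaled. On the other side of Mvk the nearest tested protein-coding gene was Trpv4, a calcium-permeable channel 161560 bp away, with 1.20 ± 0.282 FPKM with CCl4 and 1.88 ± 0.106 FPKM in control. It fell by 0.40 ± 0.10 (adjusted p = 0.0232, limma), and its adjusted p was 0.0697 without CCl4 replicate 1, 0.0824 without CCl4 replicate 3, 0.0586 without control replicate 1, 0.0521 without control replicate 2 and 0.117 with no filter.

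Pmvk (chr3:89454541-89469013, plus strand), phosphomevalonate kinase, adds the second phosphate and showed the highest change of the pathway. It had 12.12, 14.4 and 13.8 FPKM in the CCl4 libraries, against 2.30, 2.81 and 2.22 FPKM in the control libraries. Even the lowest CCl4 library lay far above the highest control library. Means were 13.4 ± 1.18 FPKM with CCl4 and 2.44 ± 0.320 FPKM in control (SD, n = 3 each), a ratio of 5.50. The log2 fold change was 2.07 ± 0.10, with a 95% interval of 1.85 to 2.29 and an adjusted p of 4.05e-05 (limma), the 8th highest rise among the 10995 tested rows and the 25th by size in either direction. It was called higher in all 18 alternatives run, at log2 fold changes between 2.01 and 2.42. The annotation (GENCODE M21) gives Pmvk 4 coding transcripts of 652 to 1194 bases that start up to 5030 bp apart, and the table gives 1 value per gene, so their shares cannot be told apart.

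None of the 31-base words of the Pmvk transcripts occurred in another annotated gene's transcripts, so reads shared with a copy were not seen by this measure. Its nearest tested neighbour, Pbxip1, 3588 bp upstream and on the same strand, averaged 21.2 ± 2.83 FPKM with CCl4 and 20.1 ± 0.795 FPKM in control (log2 fold change 0.07, adjusted p = 0.622, limma). Adar, an RNA-editing enzyme 246008 bp on the other side, averaged 2.67 ± 0.110 FPKM with CCl4 and 2.67 ± 0.297 FPKM in control (adjusted p = 0.990). Neither neighbour was called. Among the 45 other tested protein-coding genes within 1000000 bp of Pmvk, 0 were called higher and 6 were called lower, which were Gon4l, Ash1l, Zbtb7b, Ubap2l, Rps27 and Crtc2. Over all tested rows 9.64% were called higher and 22.2% lower, and no result about the region is read from these counts. The log2 fold changes of the 45 genes ran between -1.11, for the ribosomal protein gene Rps27, and 0.30, with a median of -0.04. Fdps, a later enzyme of the same pathway, lies in this window, 352581 bp from the start of Pmvk.

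**Figure D2:**
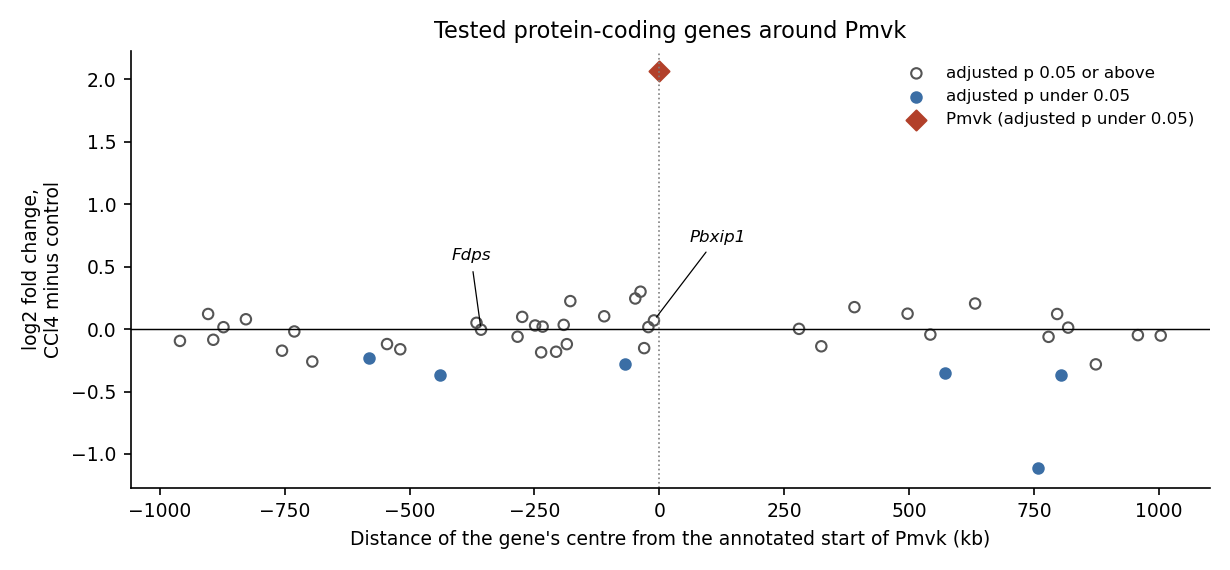
Log2 fold change (CCl4 minus control, log2(FPKM + 1) scale) of the tested protein-coding genes around Pmvk against the distance of each gene's centre from the start of Pmvk in kb; filled points have an adjusted p under 0.05. Pmvk stands at 2.07, while the 45 other genes lie between -1.11 and 0.30.

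Mvd (chr8:122433601-122443422, minus strand), the decarboxylase that yields isopentenyl diphosphate, had 2.01, 2.47 and 1.69 FPKM with CCl4 and 2.15, 2.06 and 2.77 FPKM in control. The libraries of both groups were interleaved. The log2 fold change was -0.12 ± 0.12 (95% interval -0.40 to 0.15, adjusted p = 0.461, limma), and Mvd was called in none of the 17 alternatives that kept it, with changes between -0.27 and -0.03.

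Idi1 (chr13:8885501-8892451, plus strand), the isomerase that makes dimethylallyl diphosphate, was low, at 1.23, 1.13 and 1.61 FPKM with CCl4 and 0.92, 0.84 and 0.99 FPKM in control. Every CCl4 library exceeded every control library, by a small margin. The control mean of 0.917 ± 0.0751 FPKM lay under the 1 FPKM minimum and the CCl4 mean of 1.32 ± 0.253 FPKM over it (SD, n = 3 each), so the row was tested only because of its level with CCl4. Its log2 fold change was 0.27 ± 0.10 (95% interval 0.04 to 0.50), with a p of 0.0258 before and 0.0697 after adjustment over all rows (limma), and it was not called. Under trimmed-mean scaling, median-ratio scaling and library weights the adjusted p was 0.0387, 0.0370 and 0.0422. Of its 31-base words, 30.5% occur in transcripts of other genes, most of them in Gm13502, so its values are uncertain.

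Fdps (chr3:89093588-89101959, minus strand), farnesyl diphosphate synthase, closes the trunk of the pathway. It had 2.01, 2.08 and 2.02 FPKM with CCl4 and 2.38, 1.99 and 1.80 FPKM in control. The CCl4 libraries lay close together inside the wider control range. The log2 fold change was -0.01 ± 0.09 (95% interval -0.21 to 0.20, adjusted p = 0.969, limma), and its sign also turned positive under 3 other scalings. The gene overlaps the annotated gene Gm43738 on the same strand, which shares 59.4% of its 31-base words, so the counting could have split its reads and its values are uncertain. Antisense or opposite-strand genes also overlap Hmgcs1, with 13.7% of its words shared, Lss, with 5.45% shared, and Mvd, with 0% shared.

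Fdft1 (chr14:63145150-63179578, minus strand) is squalene synthase, the first enzyme committed to sterols. It had 8.74, 8.68 and 8.55 FPKM in the CCl4 libraries, against 14.25, 11.29 and 11.34 FPKM in the control libraries. All CCl4 libraries lay under all control libraries and close to each other, while control replicate 1 stood above the other control libraries. Means were 8.66 ± 0.0971 FPKM with CCl4 and 12.3 ± 1.69 FPKM in control (SD, n = 3 each), a ratio of 0.704. Fdft1 fell by 0.45 ± 0.10 on the log2 scale (95% interval -0.68 to -0.23, adjusted p = 0.0101, limma), and the call was lost in 1 of 18 alternatives, the test with no filter on low rows (adjusted p = 0.0750).

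The last 774 bp of Fdft1 (chr14:63145150-63145923) overlap the end of Ctsb, the lysosomal protease cathepsin B, on the opposite strand. In all, 35.3% of the Fdft1 words are shared with 2 other genes, 19.5% with Ctsb, so the values of Fdft1 are uncertain too. The library kit keeps strand, but the strand setting of the quantification is not given in the sources used here, so reads from the overlap cannot be assigned to one gene. Ctsb rose, to 66.3 ± 2.67 FPKM with CCl4, against 45.1 ± 4.06 FPKM in control (log2 fold change 0.55 ± 0.09, adjusted p = 0.00310, limma), the opposite direction to Fdft1. The nearest tested gene on the other side, the cardiac transcription factor Gata4, averaged 24.0 ± 2.80 FPKM with CCl4 and 22.9 ± 1.58 FPKM in control (log2 fold change 0.06, adjusted p = 0.672) and was not called.

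Sqle (chr15:59315077-59331192, plus strand), the epoxidase that inserts oxygen into squalene, had 0.25, 0.21 and 0.25 FPKM with CCl4 and 0.22, 0.09 and 0.24 FPKM in control. Lss (chr10:76531588-76557138, plus strand), which cyclises the epoxide to lanosterol, had 0.26, 0.29 and 0.30 FPKM with CCl4 and 0.38, 0.26 and 0.29 FPKM in control. The groups overlapped for both, and both lay below the minimum set for testing. Tested without that minimum, neither was called, with log2 fold changes of 0.07 for Sqle and -0.03 for Lss and adjusted p of 0.600 and 0.804 (limma).

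**Figure D3:**
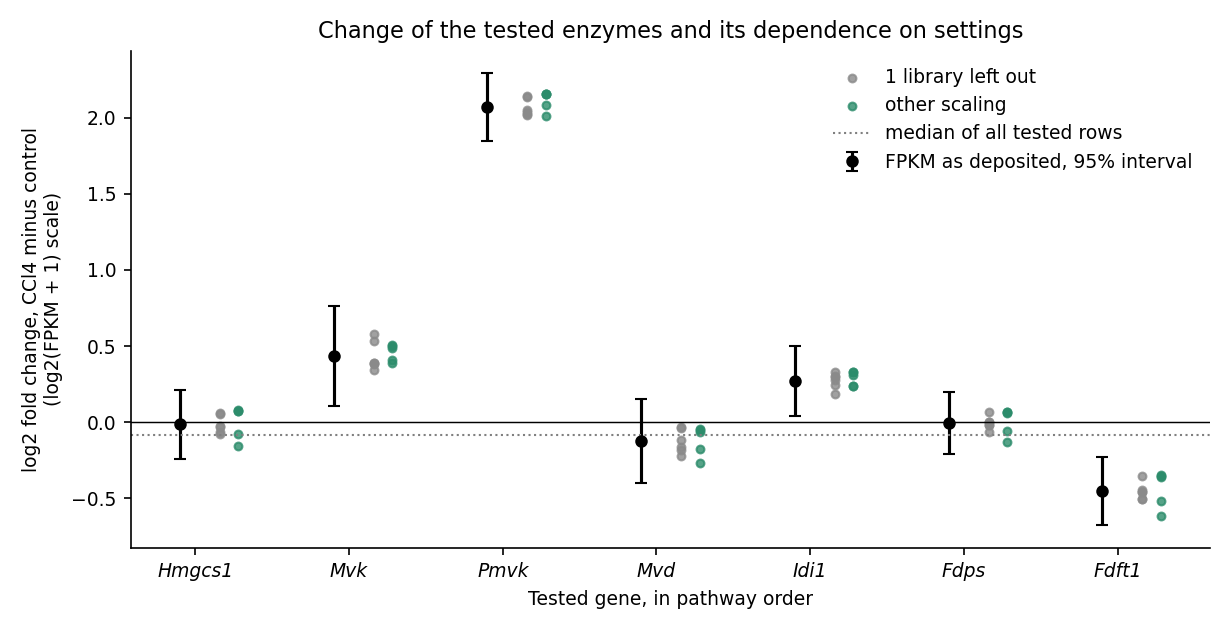
Log2 fold change (CCl4 minus control, log2(FPKM + 1) scale) of the 7 tested enzymes in pathway order, black points with 95% intervals; grey points leave out 1 library each, green points use another scaling, and the dotted line is the median of all tested rows at -0.09. Pmvk at 2.07 and Mvk at 0.44 have intervals above 0, Fdft1 at -0.45 has one below 0, and Idi1 at 0.27 has an interval just above 0.

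FPKM is a level per gene length, so the enzymes can be ranked within each group. With CCl4 the order was Pmvk, Fdft1, Hmgcs1, Mvk, Mvd, Fdps, Idi1, Lss and Sqle. In control it was Fdft1, Hmgcs1, Pmvk, Mvd, Fdps, Mvk, Idi1, Lss and Sqle. Pmvk ranked 1 with CCl4 and 3 in control. The ranges of neighbours in the order overlapped for Mvk and Mvd and for Mvd and Fdps with CCl4, and for Pmvk and Mvd, Mvd and Fdps, and Fdps and Mvk in control, so those neighbours did not differ beyond their spread. All other neighbours lay apart, though the places of Idi1, Fdps and Fdft1 rest on values that are uncertain through shared words.

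The 9 members summed to 33.1, 37.0 and 36.5 FPKM with CCl4, against 30.5, 25.4 and 26.0 FPKM in control, and without Pmvk to 21.0, 22.6 and 22.7 FPKM with CCl4, against 28.2, 22.6 and 23.7 FPKM in control. The full sums lay apart, and the sums without Pmvk overlapped. Pmvk supplied 37.8% ± 1.15 of the sum with CCl4 and 9.05% ± 1.80 in control (SD, n = 3 each). The share of Fdft1 was 24.4% ± 1.71 with CCl4 and 44.95% ± 1.62 in control.

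Ratios of each member to the member listed before it were taken within each library. The ratio of Pmvk to Mvk was 7.01, 6.21 and 5.92 with CCl4, against 1.26, 2.49 and 2.16 in control. The ratio of Mvd to Pmvk averaged 0.153 ± 0.0268 with CCl4 and 0.972 ± 0.259 in control (SD, n = 3 each). Both sets of ratios lay apart between the groups on either side of Pmvk. The ratio of Fdft1 to Fdps was 4.35, 4.17 and 4.23 with CCl4, against 5.99, 5.67 and 6.30 in control, and every CCl4 ratio lay under every control ratio. The groups also did not overlap for Mvk to Hmgcs1 (0.395 ± 0.0316 with CCl4, 0.241 ± 0.0543 in control), Idi1 to Mvd (0.674 ± 0.253 with CCl4, 0.398 ± 0.0363 in control) and Sqle to Fdft1 (0.0274 ± 0.00275 with CCl4, 0.0149 ± 0.00662 in control). They overlapped for Fdps to Idi1 (1.58 ± 0.297 with CCl4, 2.26 ± 0.396 in control) and Lss to Sqle (1.21 ± 0.171 with CCl4, 1.94 ± 0.861 in control). Sqle itself lay at 0.09 to 0.25 FPKM and overlapped between the groups, so the ratios with Sqle rest on very low values. The values of Idi1, Fdps and Fdft1 are uncertain through words shared with other genes, and so are the ratios with them. Ratios that share an enzyme are not independent of each other. The ratio of Pmvk to Fdft1 was 1.55 ± 0.146 with CCl4 and 0.202 ± 0.0441 in control.

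**Figure D4:**
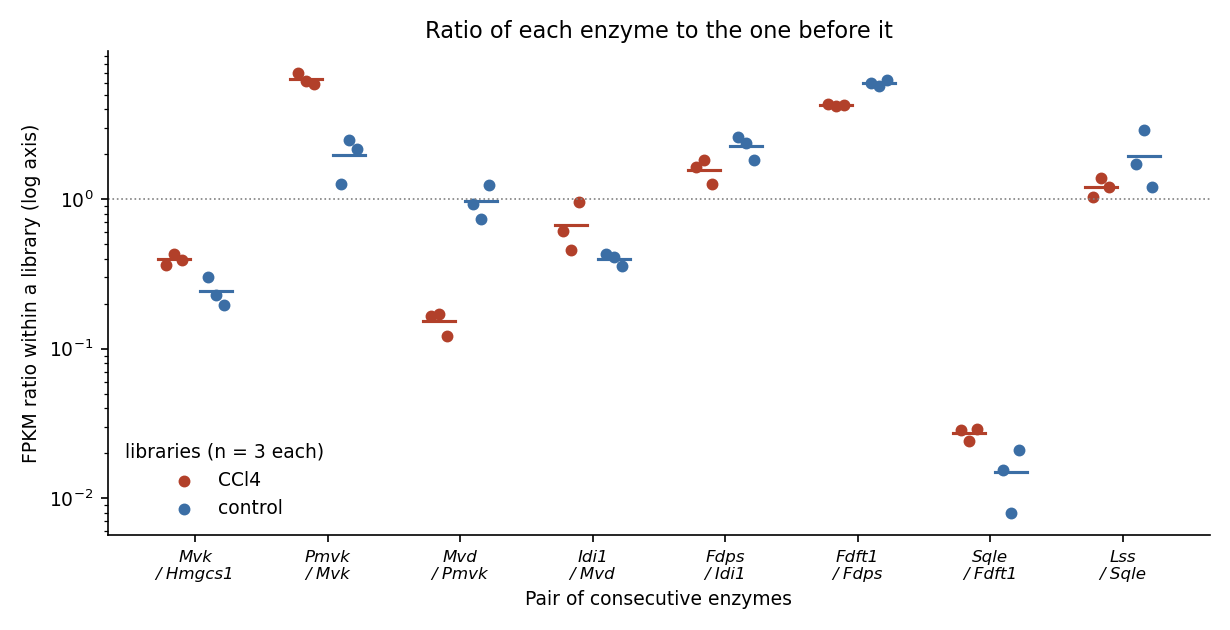
FPKM ratio within a library, on a log axis, of each member to the member listed before it. There is 1 point per library for the CCl4 and control groups (n = 3 each). Bars mark the means and a dotted line a ratio of 1. The Pmvk to Mvk ratio lies at 5.92 to 7.01 with CCl4 and 1.26 to 2.49 in control, and Fdft1 to Fdps lies lower with CCl4.

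No library was high or low for every member. Within the CCl4 group, replicate 1 was the lowest library for 5 of the 9 members, and within the control group replicate 2 was the lowest for 6 and replicate 1 the highest for 5. The coefficient of variation was 1.12% with CCl4 and 13.8% in control for Fdft1 and 1.86% with CCl4 and 14.4% in control for Fdps, the 2 lowest values of the CCl4 group. For Sqle it was 9.76% with CCl4 and 44.4% in control, the highest value of the control group. For Pmvk it was 8.79% with CCl4 and 13.1% in control.

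The rows most like Pmvk over the 6 libraries were chosen by the root mean square difference of log2(FPKM + 1) after each row's own mean was removed. They were Agt, the angiotensinogen gene, at a difference of 0.255, Klhdc8a at 0.256 and Rom1 at 0.275. Agt averaged 6.47 FPKM with CCl4 and 0.977 FPKM in control, Klhdc8a 5.43 FPKM with CCl4 and 0.903 FPKM in control, and Rom1 16.4 FPKM with CCl4 and 3.73 FPKM in control. The rows most like Fdft1 were 4921524J17Rik at 0.0481, with 6.56 FPKM with CCl4 and 9.24 FPKM in control, Oat, ornithine aminotransferase, at 0.0490, with 60.4 FPKM with CCl4 and 85.6 FPKM in control, and Rmc1 at 0.0508, with 3.24 FPKM with CCl4 and 4.69 FPKM in control. A rank of this kind describes the 6 libraries only.

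Of 10 later enzymes that turn lanosterol into cholesterol, 6 were tested, 1 was called higher and 1 lower (9.64% and 22.2% of all rows), and the median log2 fold change was 0.04, against -0.09 over all rows. Cyp51, the lanosterol demethylase, had 2.34, 2.28 and 2.32 FPKM with CCl4, against 1.57, 1.25 and 1.72 FPKM in control, and rose by 0.40 ± 0.09 (adjusted p = 0.0123, and 0.0637 with no filter on low rows, limma). Every CCl4 library was above every control library. Lbr, a lamin receptor that also has sterol reductase activity, had 3.43, 3.92 and 3.40 FPKM with CCl4, against 5.04, 4.33 and 4.83 FPKM in control, and fell by 0.32 ± 0.08 (adjusted p = 0.0216). Its adjusted p was 0.0594 without CCl4 replicate 1, 0.0802 without CCl4 replicate 3, 0.0587 without control replicate 1, 0.0562 without control replicate 3 and 0.0819 with no filter. With replicate number as a block the adjusted p for Lbr was 0.0620 (limma). Sc5d, a sterol desaturase, averaged 3.39 FPKM with CCl4 and 2.70 FPKM in control (adjusted p = 0.0812), Ebp, a sterol isomerase, 3.49 FPKM with CCl4 and 3.76 FPKM in control (adjusted p = 0.459), and Hsd17b7, a sterol ketone reductase, 2.18 FPKM with CCl4 and 2.19 FPKM in control (adjusted p = 0.976). None of these 3 was called.

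The isoprenoid branch uses products of the pathway outside the sterols. All 16 genes of that list were tested, and 2 were called higher and 3 lower (9.64% and 22.2% of all rows). Their median log2 fold change was 0.06, against -0.09 over all rows. The share of called genes differed with the scaling, with 1 higher and 4 lower as TPM and 4 higher and 2 lower under trimmed-mean scaling, where 617 of all 10995 rows were higher and 4221 lower as TPM and 1680 were higher and 1630 lower under trimmed-mean scaling. Rabggtb, a subunit of the geranylgeranyl transferase that modifies Rab proteins, had 18.8, 17.7 and 17.1 FPKM with CCl4, against 26.3, 28.7 and 26.3 FPKM in control, and fell by 0.57 ± 0.08 (adjusted p = 0.00142, limma). No library crossed between the groups. Ggps1, which makes geranylgeranyl diphosphate, averaged 4.41 ± 0.278 FPKM with CCl4 and 5.78 ± 0.255 FPKM in control and fell by 0.33 ± 0.08 (adjusted p = 0.0136, and 0.0523 without control replicate 2). Coq2, the transferase that joins the tail to the ring of ubiquinone, averaged 26.8 ± 1.84 FPKM with CCl4 and 31.9 ± 0.332 FPKM in control and fell by 0.24 ± 0.08 (adjusted p = 0.0425, limma). The Coq2 call was lost in 11 of 18 alternatives, including each of the 6 that left out a library, at adjusted p of 0.0981, 0.0537 and 0.111 without CCl4 replicates 1, 2 and 3 and 0.0608, 0.0968 and 0.0955 without control replicates 1, 2 and 3, and trimmed-mean scaling gave 0.148.

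On the other side, Pdss1, which builds the ubiquinone tail, averaged 3.10 ± 0.356 FPKM with CCl4 and 1.92 ± 0.492 FPKM in control and rose by 0.50 ± 0.13 (adjusted p = 0.0204, limma). Its adjusted p was 0.0535 without CCl4 replicate 1, 0.0736 without CCl4 replicate 3, 0.0585 without control replicate 2 and 0.146 with no filter. Dhdds, a subunit of the enzyme that starts dolichol, averaged 6.77 ± 0.204 FPKM with CCl4 and 5.39 ± 0.240 FPKM in control and rose by 0.28 ± 0.07 (adjusted p = 0.0181). The adjusted p for Dhdds was 0.138 as TPM, 0.0595 without CCl4 replicate 2 and 0.0684 without CCl4 replicate 3. With mitochondrial rows removed it was 0.0587, and with replicate number as a block 0.0523 for Dhdds (limma). Its partner subunit Nus1 averaged 9.72 FPKM with CCl4 and 9.02 FPKM in control (adjusted p = 0.365). Fnta, a subunit of the farnesyl transferase, averaged 16.2 FPKM with CCl4 and 17.7 FPKM in control (adjusted p = 0.278) and Icmt, which methylates prenylated proteins, 6.96 FPKM with CCl4 and 6.67 FPKM in control (adjusted p = 0.707). These 3 were not called.

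The third list held the SREBP-2 machinery and other genes known as SREBP-2 targets. Of 12 listed genes 10 were tested, 0 were called higher and 1 lower by limma, and the median log2 fold change was 0.10. The test across all rows called 9.64% higher and 22.2% lower. As TPM 0 of the 10 were higher and 4 lower with a median of -0.02, where 4221 of all 10995 rows were lower and their median was -0.23. Under trimmed-mean, median-ratio and quantile scaling 2 were higher and 1 lower. Of all 10995 rows these scalings called 1680, 1713 and 1722 higher and 1630, 1574 and 1641 lower, in that order. The called gene was Mbtps2, the protease that makes the second cut in releasing SREBP-2, with 1.24, 1.31 and 1.07 FPKM with CCl4, against 1.76, 1.64 and 1.87 FPKM in control. The CCl4 libraries were all under the control libraries, and Mbtps2 fell by 0.32 ± 0.08 (adjusted p = 0.0214), with 0.0819 without CCl4 replicate 3, 0.0597 without control replicate 3 and 0.0590 with no filter. With replicate number as a block the adjusted p for Mbtps2 was 0.0600 (limma). Srebf2, which encodes SREBP-2 and was named after its values were seen, had 3.54, 3.82 and 4.05 FPKM with CCl4, against 3.59, 2.84 and 3.66 FPKM in control (log2 fold change 0.14 ± 0.10, adjusted p = 0.286). Insig2, which retains the SREBP complex in the endoplasmic reticulum, averaged 13.9 FPKM with CCl4 and 12.3 FPKM in control (adjusted p = 0.186), and Mbtps1, the protease of the first cut, 4.41 FPKM with CCl4 and 4.81 FPKM in control (adjusted p = 0.319). Idi2, a paralog of Idi1, was listed at 0 in all 6 libraries.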

How the data were processed

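RNA sequencing was done on 6 libraries, 3 from each group. The authors deposited FPKM values, made with StringTie 2.1.6 on GRCm38 (both per the submitters' processing notes). The aligner, annotation release, filters and strand setting were not given in the sources used here. Deposited were 32479 rows, 32415 distinct symbols, 2 decimals and 0 columns of other samples. Per the labels, polyadenylated RNA was captured and strand was marked. Other steps of the pathway are not reported here.

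Values were transformed to log2(FPKM + 1), which understates the change of low genes, and rows with a mean of at least 1 FPKM (10995) entered a two-sided limma test (version 3.58.1, R 4.3.3, moderated variances with trend), without covariates and Benjamini-Hochberg adjusted over all rows; the procedure was tested on simulated data. Each mouse gave 1 library, and the precision is limited by 3 libraries per group. Members and lists were chosen with earlier results of these data known. Named were all members, called list genes and up to 3 others per list by mean FPKM, the nearest tested neighbours of called members, and the 3 rows most like Pmvk and Fdft1. Alternatives changed the pseudocount (0.1), filter (none, 5 FPKM), scaling, variance model and libraries used. Trimmed-mean scaling was computed directly, chosen after seeing the data, in place of edgeR, which was not run because the table holds no counts. Positions and word sharing came from GENCODE M21, and coordinates are 1-based.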

Additional observations from a re-analysis of the deposited data

How the results depend on the processing

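Pmvk was called higher in all 18 alternatives and Mvd in none of its 17. The count of members higher, 2 as deposited, was 1 with no filter, a 5 FPKM minimum, TPM, mitochondrial rows removed and the replicate block, 3 under trimmed-mean scaling, median-ratio scaling and library weights, and 1 to 2 without 1 library; that of members lower, 1, was 0 with no filter. Mvk lost its call with no filter (adjusted p = 0.243), as TPM (0.0973) and with mitochondrial rows removed (0.0670), by limma. Over all rows, 1060 higher and 2441 lower became 495 and 1301 with no filter, 655 and 1510 at 5 FPKM, 617 and 4221 as TPM, 1680 higher under trimmed-mean scaling, 1713 and 1574 under median-ratio scaling, 1722 higher under quantile normalization, and 642 to 1137 higher and 1546 to 2121 lower without 1 library. Higher calls were 30.3% of calls as deposited, 12.8% as TPM, 20.4% with mitochondrial rows removed and 50.8% under trimmed-mean scaling, and the median of all rows was -0.09, -0.23, -0.14 and -0.01. The sign reversed for Hmgcs1 under trimmed-mean (0.0735), median-ratio (0.0794), quantile (0.0723) and library-weight (0.0660) settings, with -0.0764 to 0.0572 without 1 library, and for Fdps at 0.0649, 0.0696, 0.0625 and 0.0150, with -0.0662 to 0.0696 without 1 library. The cause was not tested. Equal replicate numbers did not pair the samples (r of -0.064, 0.0461 and -0.038), and not every sample correlated best with its own number; with the replicate block 1 member was higher and 1 lower, Mvk at an adjusted p of 0.0919, and over all rows 861 were higher and 1790 lower. Depth is unknown, so no limit by counts can be given for Sqle and Lss.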
